A study of Mus musculus with 8 samples.

Results

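Calcium-activated potassium channels of the BK and SK families were compared between the cerebella of Inbred Long Sleep (ILS) and Inbred Short Sleep (ISS) mice. The members were every probe set on the Affymetrix 430A and 430B arrays whose single gene symbol in the platform annotation was Kcnma1, Kcnmb1, Kcnmb2, Kcnmb4, Kcnn1, Kcnn2 or Kcnn3. This gave 14 probe sets of 7 genes, 11 on 430A and 3 on 430B, among 45137 probe sets apart from controls, and 7 genes among the 18193 with a probe set of their own on these chips. Kcnma1 had 5 of them, Kcnmb1, Kcnmb2 and Kcnn1 had 2 each, and Kcnmb4, Kcnn2 and Kcnn3 had 1 each.

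Cerebellar total RNA came from 4 male mice, ILS mice 48 and 51 and ISS mice 55 and 56, and each mouse was hybridised to both chips. All 4 mice had never received alcohol and had been kept with free food and water for 14 days after a transfer between facilities. The labels state no age. The strains descend from lines bred for long (ILS) or short (ISS) sleep after a dose of ethanol, and the question addressed is which transcripts differ between them at baseline.

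BK channels open when the membrane is depolarised and intracellular calcium rises together, and they speed the repolarisation of the action potential. Their pore is encoded by Kcnma1, and the beta subunits, among them Kcnmb1, Kcnmb2 and Kcnmb4, set how strongly calcium opens the pore and how it inactivates. SK channels, encoded by Kcnn1, Kcnn2 and Kcnn3, do not sense voltage. They open through calmodulin bound to the channel and carry the slower hyperpolarisation that follows spikes. Both families regulate the regular firing of cerebellar Purkinje cells, and BK channels are a known target of ethanol.

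No probe set of these channels differed between ILS and ISS past the threshold, which was an adjusted p under 0.05 by limma over all tested probe sets of a chip. Among the 4 probe sets bright enough to test, the closest was Kcnn2, the SK2 channel gene, whose signal was 1.33-fold higher in ILS (limma adjusted p = 0.149). The brightest probe set of the BK pore gene Kcnma1 had a mean in ILS at 0.825 of the ISS level. Kcnmb4 differed by less than the spread between mice of one strain. Kcnmb1, Kcnmb2, Kcnn1 and Kcnn3 had mean signals below the middle of their chip and were not tested. Of 14 probe sets, 4 passed the filter on dim signals, which asked for a mean log2 signal at or above the chip's median (a signal of 218 on 430A and 231 on 430B). None of the 4 was called, and 1 of them had an unadjusted p under 0.05. Over all tested probe sets limma called 2.93% on 430A and 0.48% on 430B, so a count of 0 among 4 is near the background. An unadjusted p under 0.05 was reached by 21.8% of the tested probe sets on 430A and by 9.02% on 430B.

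A signal here is a linear intensity with no unit, scaled so that every array has the same trimmed mean of 500. Probes of different sequence bind with different strength, so strain differences were read between mice at one probe set. Brightness between probe sets was used only for the filter, the percentiles and the choice of a probe set per list gene. It is no measure of which gene has more transcript. The 430A medians were 239 and 226 on the ILS arrays and 212 and 204 on the ISS arrays. The 18S ribosomal RNA control (its 3' probe set) on 430A had signals of 538 and 801 in ILS and of 147 and 142 in ISS. It was higher in both ILS mice on 430B as well, at 2189 and 2585 against 545 and 712 in ISS. On 430A both ILS arrays ran on fluidics station 2 and both ISS arrays on station 1, so station and strain cannot be told apart there. As a check of the tissue label, 5 of the 6 granule cell markers and 7 of the 7 Purkinje cell markers on 430A passed the filter, and the granule cell marker Zic2 was dim in both strains. Purkinje markers on 430A summed to 28673 and 26783 in ILS and to 31698 and 38006 in ISS. In RNA from whole tissue, fewer cells of a type and less RNA per cell cannot be told apart.

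**Figure D1:**
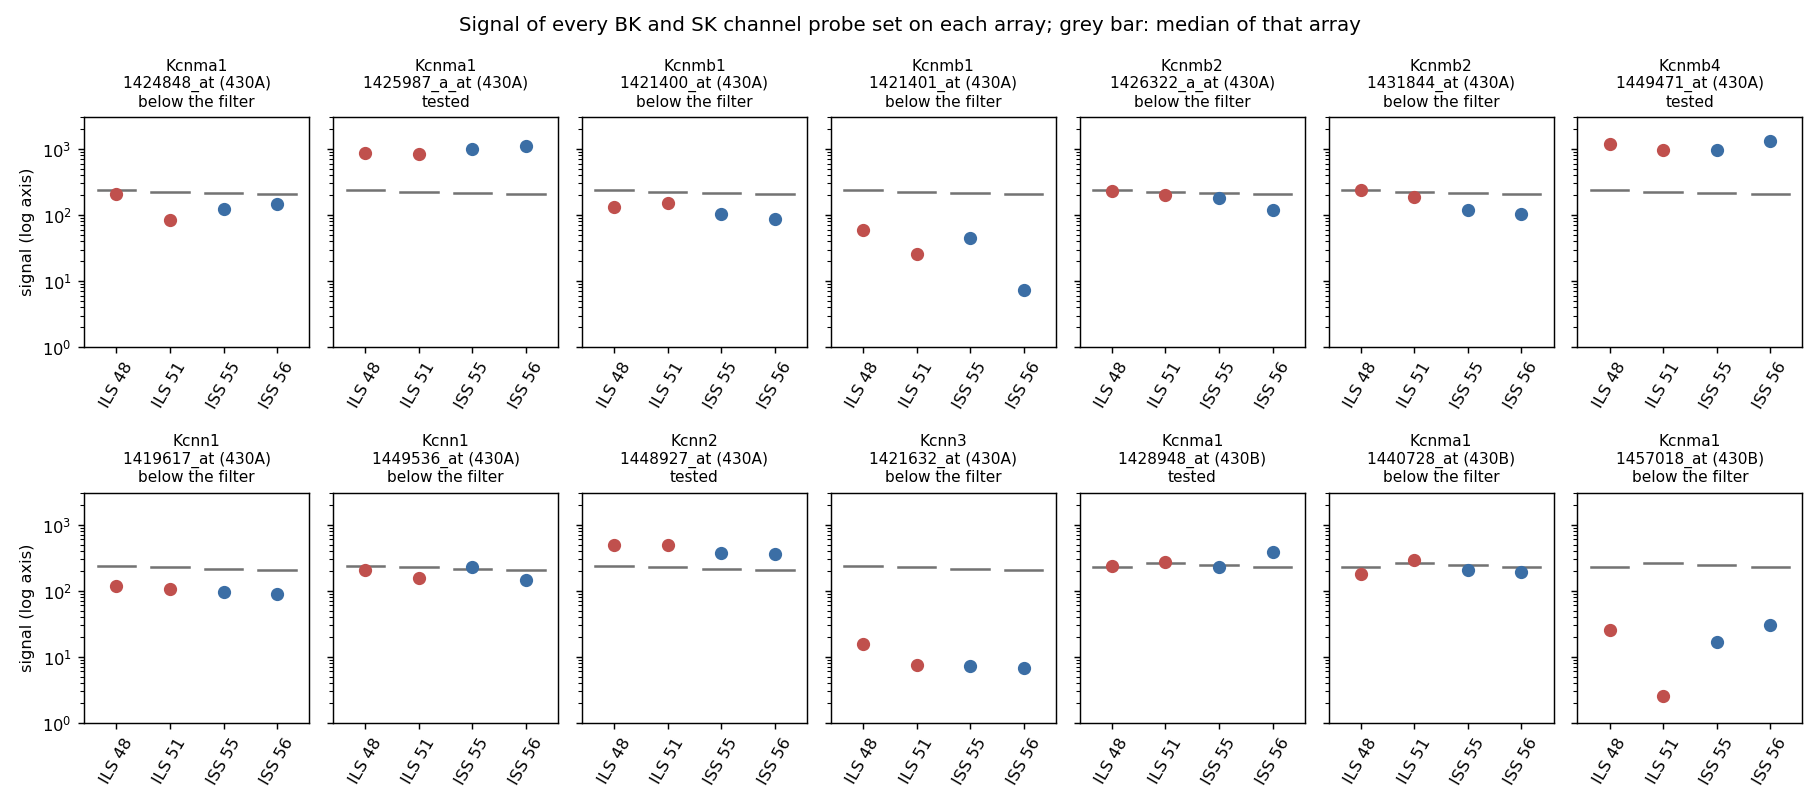
Signal (log axis) of each of the 14 BK and SK channel probe sets on the 4 arrays of its chip, with ILS mice in red and ISS mice in blue, 1 point per mouse, and a grey bar at the median of each array. The points of Kcnma1 (1425987_a_at), Kcnmb4 and Kcnn2 lie above the medians of all 4 arrays, while Kcnn3 lies at 15.7 or below.

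The BK pore gene Kcnma1 was brightest at probe set 1425987_a_at of 430A, at percentile 83.2 of the chip. The suffix a marks probes that match several transcripts of one gene. Its signal was 873 in ILS mouse 48 and 850.1 in ILS mouse 51, against 998 in ISS mouse 55 and 1093 in ISS mouse 56. Both ILS mice were lower than both ISS mice, with a mean of 862 ± 16.5 in ILS and 1045 ± 66.5 in ISS (SD, n = 2). The log2 difference, ILS minus ISS, was -0.28 ± 0.13 (SE), with a 95% interval of -0.58 to 0.02 and a limma adjusted p of 0.258. The 95% interval leaves room for an ILS level between 0.671 and 1.02 of the ISS level. With equal array medians the log2 difference was -0.44 (limma adjusted p = 0.0885), nearer to the threshold than Kcnn2 under that scaling (adjusted p = 0.319). That scaling moved the median log2 difference of all tested probe sets of 430A to -0.17. It called 1158 of them, 935 higher in ISS, so the larger Kcnma1 difference is not particular to this gene.

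On 430B, Kcnma1 was tested at 1428948_at, where the strains overlapped. Signals were 235 and 277 in ILS mice 48 and 51, against 225 and 381 in ISS mice 55 and 56. ISS mouse 56 alone stood apart and was the highest Kcnma1 signal on both chips at these probe sets, while ISS mouse 55 was second highest on 430A and lowest on 430B. The log2 difference was -0.20 ± 0.35 (SE; 95% interval -0.98 to 0.58, limma adjusted p = 0.922), and without ISS mouse 56 it was 0.18. The sign of Kcnma1 on 430B therefore rests on 1 mouse.

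The other 3 probe sets of Kcnma1 lay below the filter and their strains overlapped. At 1424848_at the signals were 207 and 84.9 in ILS and 122 and 144 in ISS, so the ILS mice were the highest and the lowest. At 1440728_at on 430B they were 179.6 and 287 in ILS and 205 and 194 in ISS. At 1457018_at they were 25.7 and 2.50 in ILS and 17.0 and 29.9 in ISS, near the bottom of the chip. In all 3, the ILS mice differed from each other by more than the strain means did, and the sign of the difference turned when a single mouse was left out.

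Kcnmb4 encodes the beta subunit found mainly in neurons. Its only probe set, 1449471_at, lay at percentile 85.8 of 430A. Its signal was 1199 and 952 in ILS mice 48 and 51, against 979.8 and 1335 in ISS mice 55 and 56. The strains overlapped, and the mice of each strain lay farther apart than the strain means. Means were 1076 ± 175 in ILS and 1158 ± 251 in ISS (SD, n = 2), a log2 difference of -0.10 ± 0.18 (SE) with a 95% interval of -0.52 to 0.33 and a limma adjusted p of 0.789. Leaving out 1 mouse at a time moved the difference between -0.32 and 0.12, with a positive sign without ILS mouse 51 (0.07) or ISS mouse 56 (0.12). The 430B array also carries probe sets for both transcripts annotated as opposite strand to this gene. Kcnmb4os2 was above the median of all 4 arrays, at 591 and 493 in ILS and 472 and 567 in ISS (log2 difference 0.06 ± 0.23, SE, limma adjusted p = 0.969). Kcnmb4os1 was dim, at 38.7 and 81.9 in ILS and 55.4 and 29.5 in ISS.

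Kcnn2 encodes SK2, the SK channel of Purkinje cell dendrites and spines, and its probe set 1448927_at lay at percentile 65.9 of 430A. Signals were 484 and 496 in ILS mice 48 and 51, against 376 and 359 in ISS mice 55 and 56. The strains did not overlap, and mice of one strain lay closer to each other than to any mouse of the other strain. Means were 490.0 ± 8.27 in ILS and 368 ± 12.3 in ISS (SD, n = 2). The log2 difference was 0.42 ± 0.14 (SE), with a 95% interval of 0.08 to 0.75, which is 1.06-fold to 1.68-fold. The unadjusted p was 0.0198 and the limma adjusted p 0.149, so Kcnn2 was not called. It was not called in any alternative that tested it, and with no mouse left out the limma adjusted p lay between 0.134 and 0.319. Its difference ranged from 0.26 to 0.45 over 16 alternatives, but most of them could not turn its sign. Other filters, variance models and adjustments left the difference unchanged. Without overlap, leaving out a mouse or treating dim values differently could not turn the sign. The scalings that could have turned it gave 0.26 with equal array medians, 0.37 with quantile and 0.38 with cyclic loess normalization.

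**Figure D2:**
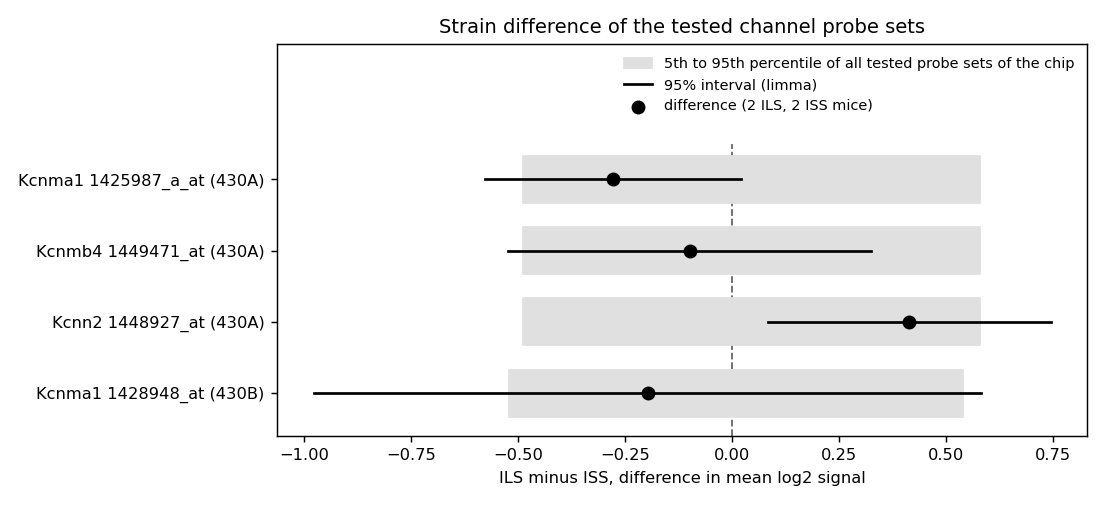
Difference in mean log2 signal, ILS minus ISS, for the 4 tested channel probe sets (points) with the 95% interval from limma (lines), over a grey band from the 5th to the 95th percentile of all tested probe sets of the same chip. All 4 points lie within the bands, and the interval of Kcnn2 (0.08 to 0.75) lies above 0 before adjustment.

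A log2 difference at least as large as that of Kcnn2, in either direction, was found in 17.1% of the tested probe sets of 430A, and one at least as large as that of Kcnma1 in 33.2%. The strains did not overlap in 54.3% of the tested probe sets of 430A, with ILS higher in 25.6% and ISS higher in 28.7%. Among the 3 tested channel probe sets on 430A, Kcnn2 was without overlap with ILS higher and Kcnma1 with ISS higher. On 430B the share without overlap was 38.9%, and the 1 tested channel probe set overlapped. From the 5th to the 95th percentile, tested log2 differences ran from -0.49 to 0.58 on 430A and from -0.52 to 0.54 on 430B.

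The Purkinje cell markers, 7 of 9 tested on 430A, had a median log2 difference of -0.46 against -0.01 over all tested probe sets of the chip. Of these, 6 were lower in ILS, and the 1 called was Ppp1r17, whose protein inhibits a phosphatase in Purkinje cells (-0.90 ± 0.14, SE, limma adjusted p = 0.0225). None of the 7 was dim. Kcnma1 on 430A had the sign of this list and Kcnn2 the opposite sign. That sign was not particular to Purkinje cells. Granule cell markers had a median of -0.12 on 430A (4 of 5 tested genes negative), and Bergmann glia and astrocyte markers -0.25 (4 of 6). The other tested marker lists had positive medians there. On 430B, 3 of the Purkinje markers were tested, with a median of -0.34, and the carbonic anhydrase-related Car8 was called higher in ILS (1.51). At its 430A probe set Car8 had 5449 and 4370 in ILS against 4428 and 5106 in ISS. The strains overlapped there, with a log2 difference of 0.04 (limma adjusted p = 0.895). The part of Purkinje cell content, or of the content of other cells, in the channel values was not tested.

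The beta subunits Kcnmb1 and Kcnmb2 and the SK genes Kcnn1 and Kcnn3 had 7 probe sets, all on 430A and all below the filter. Kcnmb1, the beta subunit best known from smooth muscle, had signals at 1421400_at of 132 and 153 in ILS and of 103 and 88.3 in ISS. Both ILS mice were higher than both ISS mice, as in 44.1% of all probe sets below the filter on 430A. Means were 143 ± 14.7 in ILS and 95.8 ± 10.6 in ISS (SD, n = 2). Its second probe set, 1421401_at, had 59.9 and 25.9 in ILS against 44.9 and 7.20 in ISS, the strains overlapped, and the log2 difference was negative (-0.19) without ISS mouse 56. Both probe sets were below the array median on all 4 arrays, so no fold from all 4 mice is given.

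Smooth muscle and pericyte markers were higher in sum in both ILS mice. Their summed signal on 430A was 5067 and 4358 in ILS against 3731 and 3278 in ISS, over the 6 of 6 genes on the chip. Of these, 3 were tested, with a median log2 difference of 0.36 and none called. The pericyte gene Rgs5 had 0.52 (limma adjusted p = 0.0915) and the smooth muscle actin gene Acta2 0.36 (adjusted p = 0.22), while the pericyte receptor gene Pdgfrb had -0.32 (adjusted p = 0.341). Rgs5 alone had signals of 3826 and 3009 in ILS against 2537 and 2220 in ISS, so the sums mostly follow this gene. Tagln, Myh11 and Cnn1, which define smooth muscle, were dim in both strains. Endothelial markers, the other vessel list, overlapped in sum on 430A, at 2584 and 3025 in ILS against 2398 and 2725 in ISS. Their median log2 difference was 0.13 over 4 tested genes, all 4 positive and none called. On 430B the 1 tested endothelial gene, Flt1, had -0.03 (limma adjusted p = 0.982). Some lists of other cells were higher in sum in both ILS mice on 430A, as the smooth muscle and pericyte list was. Microglial markers summed to 5686 and 5898 in ILS against 4409 and 3630 in ISS, with a median log2 difference of 0.66 over 6 tested genes, of which the complement genes C1qb (1.05, adjusted p = 0.0168) and C1qc (1.00, adjusted p = 0.0369) and the protease gene Ctss (0.84, adjusted p = 0.0389) were called. Oligodendrocyte markers summed to 25473 and 24169 in ILS against 22704 and 21538 in ISS. Their median log2 difference was only 0.08 over 5 tested genes, 2 of them negative. The tight junction gene Cldn11 was the 1 called (0.78, limma adjusted p = 0.0367). Interneuron markers summed to 7551 and 6805 in ILS against 6566 and 6294 in ISS. Their median was 0.19 over 4 tested genes, 1 of them negative and none called. The part of vessel content or of these other cells in the Kcnmb1 signal was not tested.

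Kcnmb2, the beta subunit whose tail makes BK currents inactivate, had both of its probe sets higher in both ILS mice than in both ISS mice. At 1431844_at the signals were 237 and 189 in ILS against 118 and 104 in ISS, with means of 213 ± 33.6 in ILS and 111 ± 9.61 in ISS (SD, n = 2). At 1426322_a_at they were 233 and 203 in ILS against 182 and 117 in ISS, with means of 218 ± 21.3 in ILS and 149.7 ± 46.2 in ISS. All 8 values lay below the medians of their arrays, so no fold is given. With no filter, limma gave adjusted p-values of 0.119 (unadjusted 0.00601) for 1431844_at and 0.291 for 1426322_a_at. In that fit 20.1% of all probe sets of 430A had an unadjusted p under 0.05. Of all probe sets below the filter on 430A, 44.1% had ILS higher without overlap.

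Kcnn1, the SK1 channel gene, had 119 and 108 in ILS against 97.1 and 87.9 in ISS at 1419617_at. Both ILS mice were slightly higher than both ISS mice at that probe set. The direction turned with quantile normalization (log2 difference -0.06) and with cyclic loess normalization (-0.07), and both ISS mice were then higher. At 1449536_at it had 207 and 154 in ILS against 231 and 145 in ISS, and ISS mice were both the highest and the lowest. ISS mouse 55 alone lay above its array median there. Kcnn3, the SK3 channel gene, had 15.7 and 7.50 in ILS against 7.20 and 6.70 in ISS at 1421632_at, at percentile 5.60 of the chip. All of these Kcnn3 values lay below the 20th percentile of 430A, so their order carries no weight.

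Of the 8 channel probe sets below the filter on 430A, 5 had both ILS mice above both ISS mice and none the reverse (62.5% with ILS higher). Among all 11313 probe sets below the filter on that chip, 44.1% had ILS higher without overlap and 10.1% had ISS higher. Their median log2 difference was 0.37, against -0.01 over the tested probe sets, so dim signals in general read higher in ILS on 430A. With quantile normalization the shares of all dim probe sets were 24.4% with ILS higher and 21.6% with ISS higher. Of the 8 channel probe sets, 3 then had ILS higher without overlap, 1421400_at of Kcnmb1 and both of Kcnmb2, and 1 had ISS higher, 1419617_at of Kcnn1. Cyclic loess normalization gave these same 3 and 1, beside 22.6% of all dim probe sets with ILS higher and 23.4% with ISS higher. With no filter, limma called none of the 8, beside 0.601% of all 22626 probe sets, and 1 had an unadjusted p under 0.05, beside 20.1% of all probe sets. That was 1431844_at of Kcnmb2, whose adjusted p of 0.119 in that fit was below that of Kcnn2 (adjusted p = 0.178).

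**Figure D3:**
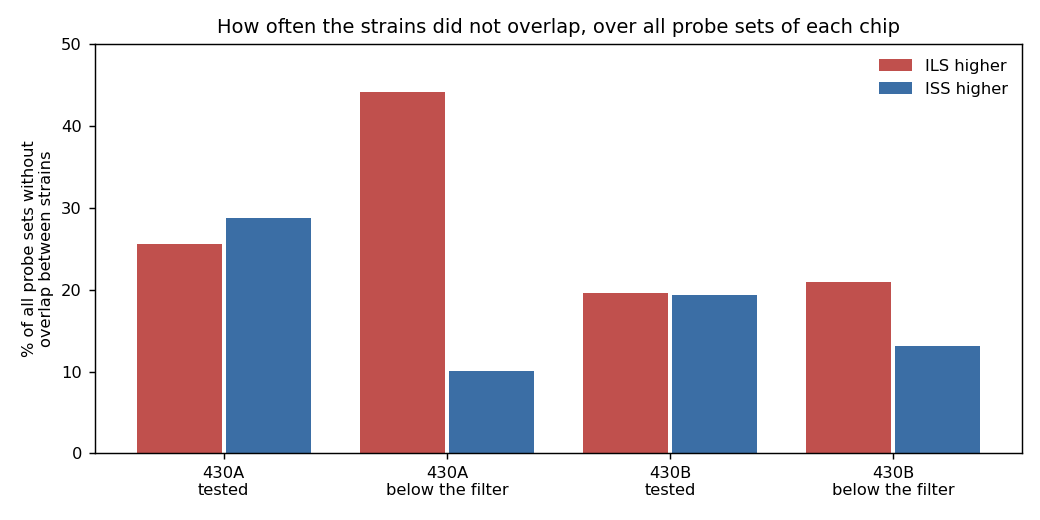
Percent of all probe sets of each chip whose 2 ILS and 2 ISS mice did not overlap, split by direction (red, ILS higher; blue, ISS higher) and by whether the probe set was tested or lay below the filter. On 430A the dim probe sets were unequal, with 44.1% higher in ILS against 10.1% higher in ISS, while the tested ones were at 25.6% and 28.7%.

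Genes that work beside these channels were taken from 4 lists and read at the brightest probe set of each gene. On 430A, 25 of them were tested and none was called, with 6 at an unadjusted p under 0.05, beside 21.8% of all tested probe sets of the chip, and a median log2 difference of -0.03. On 430B, 15 were tested and none was called, with 1 at an unadjusted p under 0.05, beside 9.02% of the chip, and a median of -0.08. The nearest to the threshold was Crbn.

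Among regulators of BK channels, 11 genes were tested on 430A, 5 of them with a positive and 6 with a negative difference. Crbn encodes cereblon, a ubiquitin ligase receptor that binds the BK pore protein. It had signals of 1337 and 1502 in ILS against 979 and 1012 in ISS, without overlap, beside 25.6% of all tested probe sets with ILS higher. The log2 difference of Crbn was 0.51 ± 0.13 (SE, limma adjusted p = 0.0745). Prkcb, a protein kinase C, stood at -0.22 (adjusted p = 0.26) and the ubiquitin ligase Stub1 at -0.26 (adjusted p = 0.274). On 430B, 7 were tested, and the smallest p-values belonged to Prkca (-0.36, adjusted p = 0.599), Dlg1 (0.16, adjusted p = 0.836) and Prkaca (0.11, adjusted p = 0.872).

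Calcium sources and buffers had 8 tested genes on 430A, with a median of -0.17, and 5 of them were lower in ILS. The ryanodine receptor gene Ryr3, which releases calcium from stores, had 355 and 393 in ILS against 295 and 192 in ISS, a log2 difference of 0.65 (limma adjusted p = 0.148). On 430B it had 344 and 323 in ILS against 302 and 130.4 in ISS, a log2 difference of 0.75 (adjusted p = 0.662). The mice of the strains did not overlap on either chip, and neither value passed the threshold. The T-type calcium channel gene Cacna1g had -0.49 (adjusted p = 0.149) and the calcium buffer Calb2 -0.46 (adjusted p = 0.195) on 430A. On 430B the 6 tested genes had a median of -0.11, and Calb1, a calcium buffer of Purkinje cells, had -0.69 (adjusted p = 0.443).

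SK channels carry calmodulin, the kinase CK2 and the phosphatase PP2A in one complex. Of 10 listed genes of this complex, 6 were on 430A with their symbol alone and all 6 were tested, with 4 positive and 2 negative differences and a median of 0.06. The PP2A subunit genes Ppp2r1a (-0.25, limma adjusted p = 0.19) and Ppp2cb (-0.32, adjusted p = 0.244) and the CK2 subunit gene Csnk2a2 (0.35, adjusted p = 0.327) had the smallest p-values. On 430B only Ppp2ca was tested (-0.22, adjusted p = 0.831).

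Among related potassium channels and BK gamma subunits, only Kcnt1, a sodium-activated channel gene, was bright enough to test. It had 3943 and 3642 in ILS against 3593 and 3659.6 in ISS on 430B, a log2 difference of 0.06 ± 0.13 (SE, limma adjusted p = 0.932). Kcnn4, Kcnu1 and Lrrc26 on 430A and Kcnt2, Lrrc38 and Lrrc52 on 430B were dim in both strains.

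**Figure D4:**
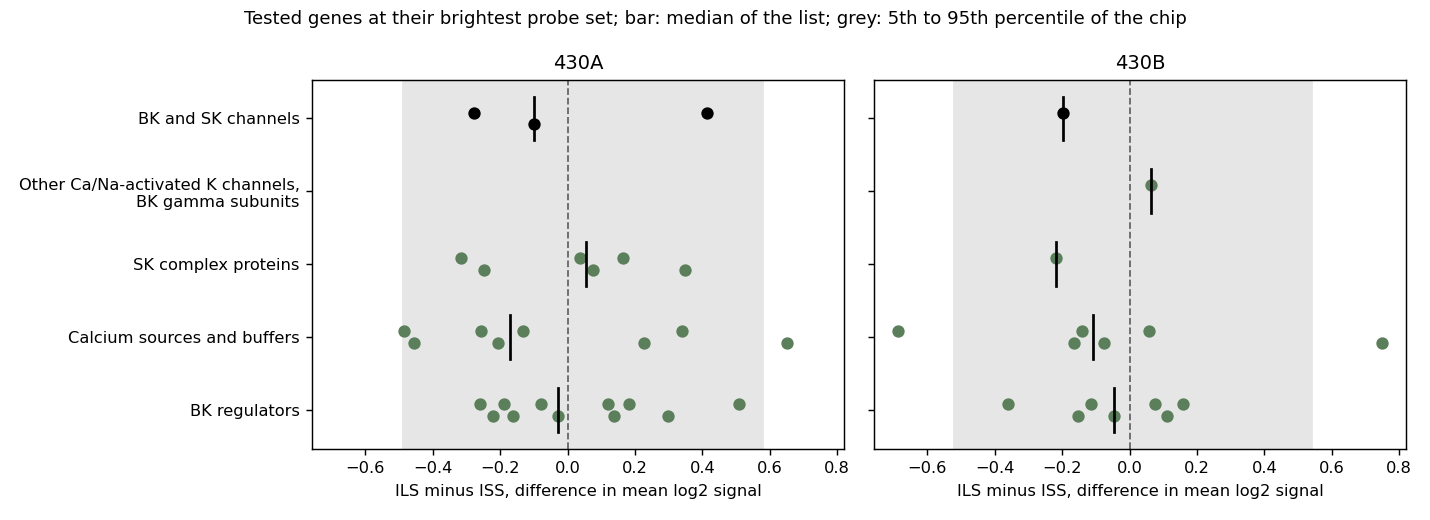
Difference in mean log2 signal, ILS minus ISS, of each tested gene at its brightest probe set, by list, with the list median as a bar and a grey band from the 5th to the 95th percentile of the chip. On 430A the lists straddle 0, with Kcnn2 at 0.42, Crbn at 0.51 and Ryr3 at 0.65 on the right.

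The probe sets most like Kcnn2 over the 4 arrays of 430A, by distance between centred log2 values, were 2810025M15Rik (distance 0.02), Hbs1l (0.04), a factor of ribosome rescue, and Dctn4 (0.04), a subunit of dynactin. Their Pearson correlations with Kcnn2 over 4 arrays were 0.999, 0.997 and 0.998. Such profiles were frequent, since 642 of 10461 candidate probe sets had a correlation above 0.95 and 99 lay closer than 0.1. For Kcnma1 on 430B the nearest were the kinase genes Stk38l (distance 0.07) and Eef2k (0.08) and the RNA-binding protein gene Bicc1 (0.09). Of 8474 candidates there, 143 had a correlation above 0.95 with Kcnma1.

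**Figure D5:**
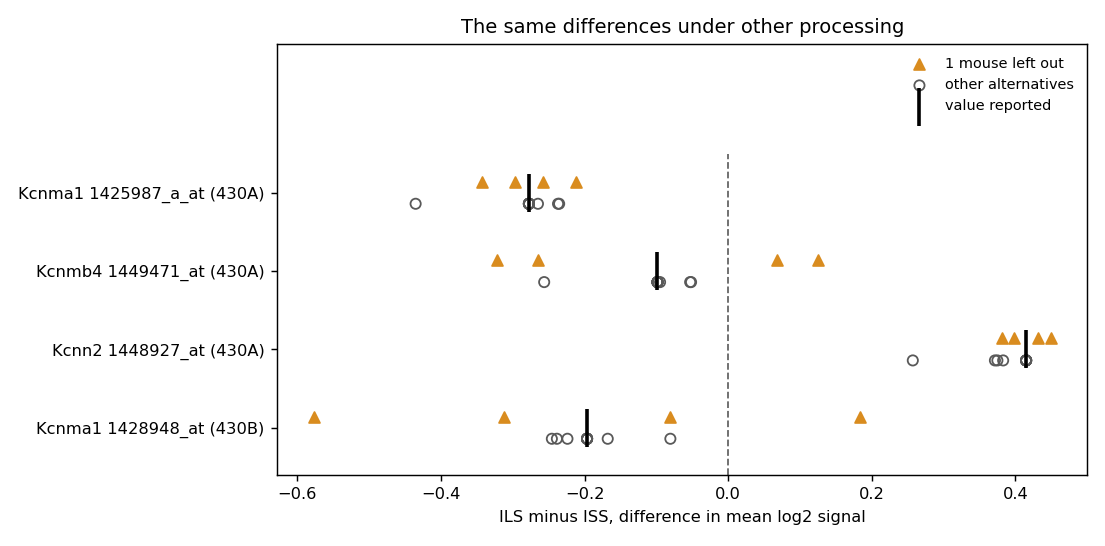
Difference in mean log2 signal, ILS minus ISS, of the 4 tested channel probe sets as reported (bar), with 1 mouse left out (triangles) and under the other processing alternatives (circles). Kcnn2 stays between 0.26 and 0.45 and Kcnma1 on 430A between -0.44 and -0.21, while Kcnmb4 and Kcnma1 on 430B cross 0 when single mice are left out.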

How the data were processed

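The authors deposited linear signal intensities per probe set. The submitters' processing notes name MAS5 as the tool, and its version is not given in the sources. The experiment files are of unit other and, per the file headers, name chip type and fluidics station. The tables hold no detection calls. Arrays were brought to the same trimmed mean of 500 (2% off each end) and log2 transformed, and 64 control probe sets were left out. Probe sets with a mean log2 signal at or above the chip's median were tested, 11313 on 430A and 11256 on 430B, with limma 3.58.1 in R 4.3.3 (lmFit, eBayes with an intensity trend). Tests were two-sided, with Benjamini-Hochberg adjustment within each chip and 2 residual degrees of freedom. A strain counted as dim where its 2 mice were both under their array medians, and no fold from this fit is given where both strains were dim. Log2 differences of such channel probe sets are given only where an alternative turned their sign, to show that turn. An exact permutation test of 2 against 2 mice cannot go below p = 0.333 and was not used. The fitting steps were tested on simulated data. The replicates are separate mice, and their number limits the precision.

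The members, gene lists and naming rules were chosen with earlier results of these data known. All member probe sets are described, and of each list of genes beside the channels the called genes or, with none called, those of smallest p (at most 3). Cell type markers are named only where a list is set beside a channel value or in the check of the tissue. Gene symbols come from the platform annotation, and 0 probe sets carried a member's symbol beside another. No coordinates are printed, since no build was named for these chips. Alternatives were other scalings, treatments of dim values, filters, variance models and adjustments, a 2-fold minimum, single mice left out and the fluidics station as a block.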

Additional observations from a re-analysis of the deposited data

How the results depend on the processing

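No channel probe set was called under any alternative that tested it. The 10 dim ones were tested only with no filter, and the filter at the 75th percentile left 2 on 430A, without Kcnn2, and 0 on 430B. Calls over the whole of 430A (332) moved to 1158 with equal array medians, 136 with no filter, 163 with the filter at the 75th percentile, 208 with both chips adjusted together and 119 with a 2-fold minimum. Leaving out single mice gave 107 (ILS 48) to 663 (ISS 55), with 187 without ILS 51 and 214 without ISS 56. Equal medians shifted the median log2 difference of tested probe sets to -0.17, and 19.3% of its calls were higher in ILS, against 54.8%. Calls on 430B (54) moved to 13 with no filter, 4 without the intensity trend, 94 with both chips adjusted together and 24 with the station as a block, and to between 22 (without ILS 48) and 81 (without ISS 55), with 25 without ILS 51 and 34 without ISS 56. Only ILS 48 ran on station 1 there, so the block cannot tell the station from that mouse. The cause of these moves was not tested. Dim channel probe sets on 430A without overlap and with ILS higher numbered 3 with quantile or cyclic loess normalization, against 5, a count added after the data were seen. Signs of tested probe sets reversed with single mice left out for Kcnmb4 (-0.32 to 0.12, positive at 0.07 without ILS 51) and for Kcnma1 at 1428948_at (-0.58 to 0.18). Signs of 5 dim probe sets also turned with a mouse left out, Kcnma1 at 1424848_at (-0.64 to 0.64), 1440728_at (-0.15 to 0.52) and 1457018_at (-3.17 to 0.19), Kcnmb1 at 1421401_at (-0.19 to 2.45) and Kcnn1 at 1449536_at (-0.37 to 0.30). The sign of Kcnma1 at 1424848_at turned with a pseudocount (0.02), and that of Kcnn1 at 1419617_at with quantile (-0.06) and cyclic loess normalization (-0.07). No paired analysis was possible because the strains share no mouse numbers. With no detection calls, signals below the array median have no known distance from background, which limits Kcnmb1, Kcnmb2, Kcnn1 and Kcnn3.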
